A study of Homo sapiens with 12 samples.

Results

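The 44 genes described here were grouped by role. Origin licensing and the replicative helicase have 20 genes, including the inhibitor GMNN and MCM8, which is outside the MCM2 to MCM7 ring. The polymerases with their sliding clamp, clamp loader and Okazaki fragment enzymes have 17 genes, and enzymes that supply deoxynucleotides have 7. The 44 genes were chosen by symbol from the 57500 genes of the deposited count table. All 44 were among the 16251 genes with enough counts to be tested. RNA was sequenced from MRC5 cells, a line of human embryonic lung fibroblasts, to ask how inhibitors of mitochondrial pyruvate or citrate transport change gene expression in senescent cells. The 12 libraries form 4 groups of 3. Prol cells were proliferating and untreated. Sen(IR) cells had received 20 Gy of X-rays and were collected 10 to 12 days later. Sen(IR)+UK5099 cells were irradiated in the same way and kept in 100 µM UK5099, an inhibitor of the mitochondrial pyruvate carrier. Sen(IR)+CTPI2 cells were irradiated and kept in CTPI2, an inhibitor of the mitochondrial citrate carrier SLC25A1, for which 15 and 30 µM are given without saying which was sequenced. Both inhibitors were added 1 day after irradiation and stayed in the medium for 12 days. The exact collection day of each irradiated group is not given, so it may differ between them. All groups came from this one fibroblast line.

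A cell licenses its origins in G1, when the origin recognition complex, CDC6 and CDT1 load the ring of MCM2 to MCM7 onto DNA, and geminin (GMNN) blocks CDT1 once S phase has begun. CDC45 and the GINS complex then bind the ring to form the active helicase. Primase and DNA polymerase alpha start each strand, replication factor C loads the PCNA clamp, and polymerases delta and epsilon extend the strands. FEN1 and LIG1 process and seal Okazaki fragments. Ribonucleotide reductase makes deoxynucleotides from a large subunit, RRM1, and a small subunit that is RRM2 in dividing cells or the p53-induced RRM2B. Most of these genes are E2F targets that are expressed from late G1 into S phase.

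Library totals ran from 20597736 to 28245693 counts, and replicates of a group varied with a coefficient of variation of 6.12% (common dispersion 0.00374). The 10 fibroblast markers examined summed to 21344 to 25377 CPM (counts scaled to one library size) in Prol and 20675 to 21260 CPM in Sen(IR). Markers of epithelial, endothelial and immune cells, 10 in all, summed to 0.937 to 2.67 CPM over all 12 libraries, and the keratinocyte gene KRT5 was at 0 in every Prol, Sen(IR) and Sen(IR)+CTPI2 library. All levels below are CPM scaled by TMM factors, and each difference is a log2 fold change with its SE from edgeR's quasi-likelihood test, with p-values adjusted over all genes tested. Calls needed both an adjusted p below 0.05 and a log2 fold change beyond 0.5 in either direction (the limit on size).

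The comparison of Sen(IR) with Prol asks what irradiation-induced senescence did to the replication genes. Of the 44 genes, 42 fell, 1 rose and 1 was not called, where 22.4% of all genes tested were lower and 24.8% higher. The median change of the 44 was -2.42 on the log2 scale, a 5.37-fold lower level, against a median of 0.01 over all genes, and single genes ranged from -4.16 to 1.77. Every Sen(IR) library lay below every Prol library for the 42 genes that fell and above for the 1 that rose, as did 35.5% and 35.3% of all genes. At an unadjusted p under 0.05 there were 43 of the 44, against 70.7% of all genes. These are bulk cultures, so fewer cells in S phase and less RNA per cell cannot be told apart. The proliferation marker MKI67 moved with them, at 271, 224 and 209 CPM in Prol and 11.1, 12.6 and 9.26 CPM in Sen(IR), and its relation to the replication genes was not tested.

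**Figure D1:**
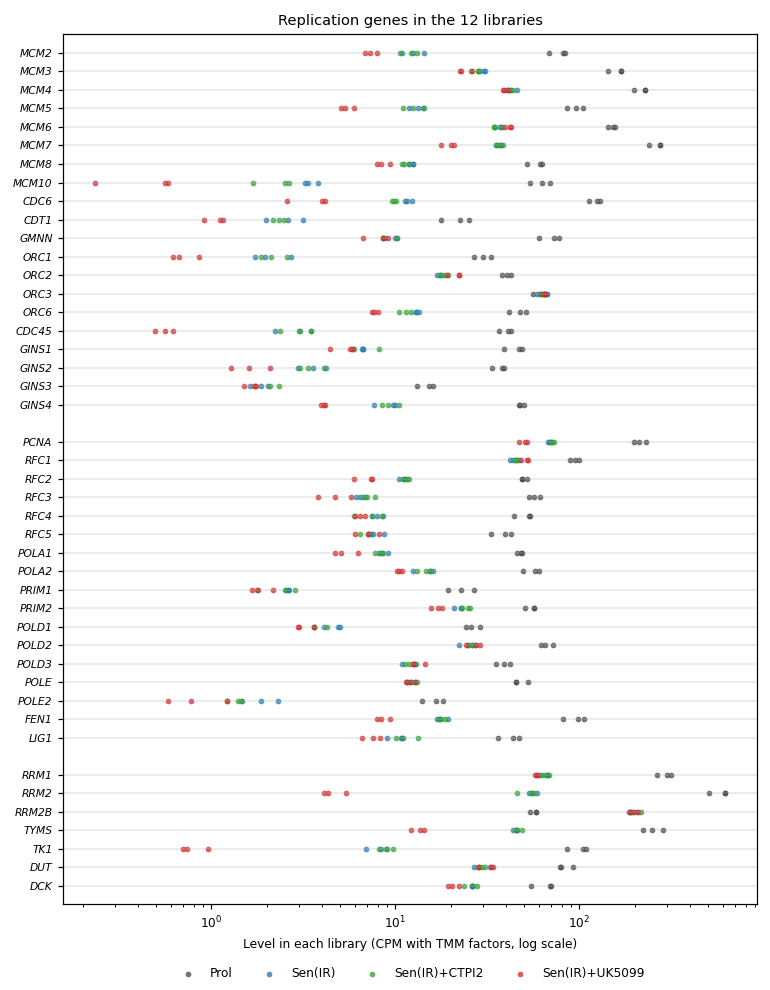
Level of each of the 44 genes in each of the 12 libraries, in CPM on a log axis, with 1 point per library and genes grouped as licensing and helicase, polymerases and clamp, and nucleotides. Prol libraries (dark) lie to the right of the irradiated libraries for 42 genes, ORC3 shows all 12 points together, RRM2B is reversed, and Sen(IR)+UK5099 points (red) lie furthest to the left for MCM10, CDC45, RRM2 and TK1.

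Among the licensing and helicase genes 19 of 20 fell, with a median of -2.80. MCM10, which helps to start the assembled helicase, kept the smallest share of its Prol level. It was at 69.4, 53.8 and 62.3 CPM in the Prol libraries and 3.78, 3.36 and 3.23 CPM in Sen(IR). The Sen(IR) mean was 5.59% of the Prol mean. Its log2 fold change was -4.16 (SE 0.132, edgeR adjusted p = 1.72e-17). ORC1, the subunit of the origin recognition complex that is made and degraded within each cycle, fell from 32.9, 26.9 and 30 CPM to 1.73, 2.70 and 1.96 CPM. No Sen(IR) library came near the Prol libraries for either gene, and the change of ORC1 was -3.81 (SE 0.145, adjusted p = 3.71e-16). CDC45, the helicase cofactor, was almost as far down, from 40.9, 36.5 and 42.6 CPM to 2.22, 3.46 and 2.99 CPM, a change of -3.80 (SE 0.132).

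The subunits of one complex did not all move alike. Within the origin recognition complex, ORC6 changed by -1.84 and ORC2 by -1.22, while ORC3 did not pass the test. ORC3 stood at 56.0, 61.4 and 62.3 CPM in Prol and at 58.9, 66.9 and 66.3 CPM in Sen(IR), so that the groups overlapped. Its change was 0.09 (SE 0.0605, adjusted p = 0.173). The ORC1, ORC2 and ORC6 levels thus lay at 7.12%, 43.0% and 27.9% of their Prol means, against 107% for ORC3.

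The ring subunits MCM2 to MCM7 were closer together, with changes from -2.87 (MCM5) to -2.04 (MCM6). Per kilobase of transcript, which allows genes to be compared, MCM7 had the highest level of the ring in Prol, at 106 ± 8.33 CPM per kb (SD, n = 3), and MCM2 the lowest, at 22.6 ± 2.41 CPM per kb. MCM3 and MCM4, at 52.2 ± 4.87 and 53.6 ± 4.01 CPM per kb, did not differ beyond their spread. In Sen(IR), MCM7 was at 14.8 ± 0.453 CPM per kb, MCM4 at 10.6 ± 0.678, MCM6 at 9.77 ± 0.426 and MCM3 at 9.76 ± 0.295. MCM5 and MCM2 were the lowest ring subunits there, at 3.78 ± 0.323 and 3.65 ± 0.5 CPM per kb, and their ranges overlapped. MCM7 led the ring in both states. Of the exon bases of MCM2 23.6% are shared with another gene, and of those of MCM7 8.49%. Reads there may be missing from the counts, and the effect on this order was not tested.

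CDC6 fell by 3.38 and CDT1 by 3.07 on the log2 scale, and the CDT1 inhibitor GMNN by 2.87. CDT1 went from 22.4, 17.6 and 25.2 CPM to 2.62, 1.99 and 3.14 CPM, and GMNN from 72.8, 60.2 and 77.9 CPM to 8.76, 10.2 and 10 CPM. Licensing factor and inhibitor thus dropped together. The log2 ratio of GMNN to CDT1 counts in each library (0.5 added to each count) averaged 1.70 ± 0.0732 (SD, n = 3) in Prol and 1.91 ± 0.371 in Sen(IR), where replicate 2 stood apart at 2.34. The difference of 0.21 gave an exact permutation p of 0.600 (two-sided, 3 against 3), and without that replicate the GMNN to CDT1 difference was -0.000226. With 3 libraries a group, this exact test cannot go below 0.1.

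All 17 polymerase, clamp and Okazaki fragment genes fell, with a median of -2.18 and a range of -3.15 to -1.09. RFC3, a small subunit of the clamp loader, went from 56.5, 53.2 and 61.4 CPM in Prol to 6.09, 6.39 and 6.81 CPM in Sen(IR). PRIM1, the catalytic subunit of primase, went from 22.7, 19.4 and 26.7 CPM to 2.53, 2.60 and 2.65 CPM. Both had a log2 fold change of -3.15, with an SE of 0.105 for RFC3 (adjusted p = 3.88e-17) and 0.153 for PRIM1 (adjusted p = 3.14e-14). POLE2, the second subunit of polymerase epsilon, was close behind at -3.12 (SE 0.178).

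Partners again kept different shares of their Prol level. RFC1, the large subunit of the clamp loader, kept 46.8% while the small subunits RFC2, RFC3, RFC4 and RFC5 kept 11.3 to 22%. The primase subunit PRIM2 kept 40.3% and PRIM1 11.3%. The catalytic subunit of polymerase delta, POLD1, kept 17.7%, and its partners POLD2 and POLD3 kept 36.7% and 31.4%. PCNA, the clamp itself, had 168 ± 12.4 CPM per kb in Prol and 53.7 ± 1.05 in Sen(IR), a change of -1.64 (SE 0.0588). It kept 32.0% of its Prol level.

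Of the 7 nucleotide genes, 6 fell and 1 rose. TK1, which salvages thymidine in S phase, was at 104, 86.1 and 108 CPM in Prol and at 8.36, 6.91 and 9.02 CPM in Sen(IR), a change of -3.62 (SE 0.102, adjusted p = 2.10e-18). RRM2 was at 618, 504 and 621 CPM in Prol and at 58.9, 52.9 and 55.3 CPM in Sen(IR), a change of -3.38 (SE 0.0872, adjusted p = 4.91e-19). Its partner subunit RRM1 changed by -2.17 (SE 0.0627), and thymidylate synthase TYMS by -2.50 (SE 0.0748). Of the exon bases of TYMS 47.9% are shared with ENOSF1 and TYMSOS, and the strand used in counting is not stated. DUT, which removes dUTP, and the deoxycytidine kinase DCK changed least, by -1.51 and -1.31.

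RRM2B ran the other way. It stood at 58.0, 58.1 and 54.0 CPM in Prol and at 188, 188 and 205 CPM in Sen(IR), with no overlap, a rise of 1.77 (SE 0.0612, adjusted p = 6.91e-17). CDKN1A, the p53 target that encodes p21, rose by 1.74 (SE 0.0540), and its relation to RRM2B was not tested. Per kilobase, RRM2 (178 ± 20.5 CPM per kb) was the most abundant subunit of ribonucleotide reductase in Prol and RRM2B (11.9 ± 0.494) the least. In Sen(IR) RRM2B led with 40.6 ± 2.02 CPM per kb, above RRM1 at 20.7 ± 1.07 and RRM2 at 17.1 ± 0.912. The log2 ratio of RRM2B to RRM2 counts was -3.35 ± 0.210 in Prol and 1.80 ± 0.110 in Sen(IR), a difference of 5.15 with no overlap, at the smallest p of 0.1 that the exact permutation test allows (adjusted 0.160 over the 8 ratio comparisons).

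**Figure D2:**
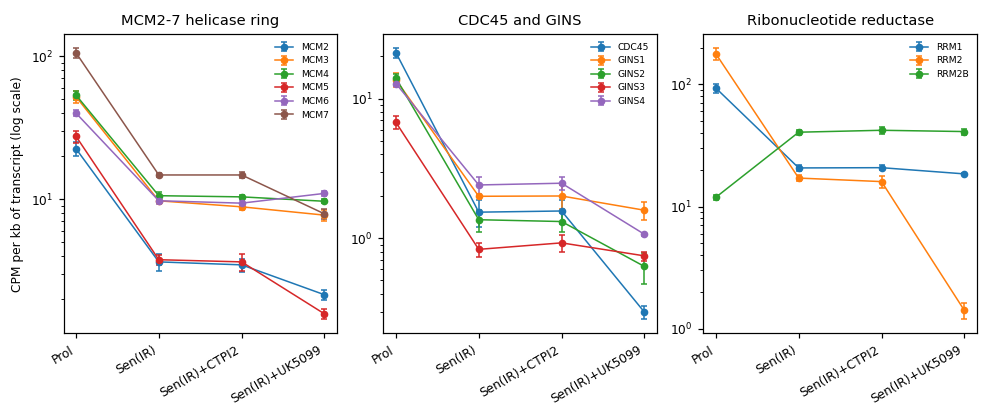
Mean level of the MCM2 to MCM7 ring, CDC45 with GINS, and the 3 ribonucleotide reductase subunits, in CPM per kb of transcript on a log axis, with bars for the SD of 3 libraries. RRM2B crosses above RRM1 and RRM2 after irradiation, and MCM5, MCM7, CDC45 and RRM2 drop again in Sen(IR)+UK5099 while MCM6 and RRM2B do not.

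Promoters were examined for words of 3 elements known from cell cycle genes. The relation of these words to the changes in level was not tested. The promoters used for comparison were not matched for base composition. RefSeq promoters (GRCh38.p14, 250 bases before to 50 after the listed start, 300 in all) were found for 39 of the 44 genes and none for MCM4, MCM5, GINS4, POLD3 and RRM2B. Where a gene had more than 1 start, as 9 did, the first listed was used. An E2F word (TTTCCCGC, TTTCGCGC, TTTGCCGC or TTTGGCGC on either strand) was in 20 of the 39 promoters (51.3%), against 3.31% of all 35116 promoters and 5.18% of the 10987 promoters of tested genes. The NF-Y word CCAAT was in 22 (56.4%), against 34.6% and 36.3%. The CHR word TTTGAA was in 1, RRM1 (2.56%, against 15.2% and 9.98%). With any listed start of a gene counted, E2F words were in 22 of 39 promoters and 6.45% of tested genes. TTTCGCGC and TTTGGCGC can overlap their own reverse complement, so a stretch can count as 2 words, but each promoter counts once. By role, E2F words were in 11 of 17 licensing and helicase promoters, 7 of 16 polymerase promoters and 2 of 6 nucleotide promoters, and NF-Y words in 13, 7 and 2.

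**Figure D3:**
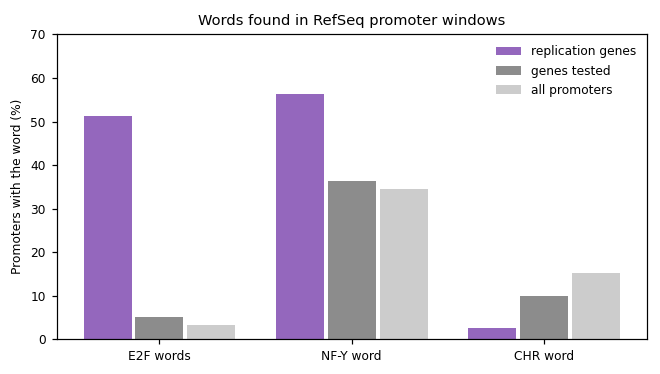
Share of promoters, in %, that hold at least 1 E2F, NF-Y or CHR word on either strand, for the 39 replication genes with a promoter, the 10987 promoters of tested genes, and all 35116 promoters. E2F words are in 51.3% of the replication genes and 5.18% of tested genes.

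The upstream bases below show the PCNA and CDC6 promoters, which hold both E2F and NF-Y words in the window, MCM10, which had the largest fall and holds NF-Y words only, and TK1, which fell by 3.62 and holds none of the 3. All are GRCh38.p14, 5′ to 3′ on the gene's strand, end just before the annotated start, and have the words in capitals. The E2F word of CDC6 lies after the start and is not printed. Only the exact words were counted and marked, so near matches, such as tttggcgg in the CDC6 bases, stay in lower case. A promoter without a word may therefore still hold a variant of it.
PCNA, chr20:5126627-5126752, minus strand: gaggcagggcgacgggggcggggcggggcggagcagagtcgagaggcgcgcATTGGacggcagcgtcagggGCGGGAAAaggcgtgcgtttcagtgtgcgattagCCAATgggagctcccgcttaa
CDC6, chr17:40287749-40287878, plus strand: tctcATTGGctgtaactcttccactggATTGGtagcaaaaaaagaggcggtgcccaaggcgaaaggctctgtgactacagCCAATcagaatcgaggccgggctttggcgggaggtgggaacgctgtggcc
MCM10, chr10:13161428-13161557, plus strand: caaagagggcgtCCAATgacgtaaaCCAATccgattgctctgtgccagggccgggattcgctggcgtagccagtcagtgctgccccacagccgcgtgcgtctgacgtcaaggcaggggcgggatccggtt
TK1, chr17:78187234-78187334, minus strand: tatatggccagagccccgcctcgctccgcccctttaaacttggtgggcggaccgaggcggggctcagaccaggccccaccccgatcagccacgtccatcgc

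RRM2 is shown for its 3 NF-Y words, which stand in near-identical surroundings at -123, -93 and -66 from the first listed start, inside the first exon of a longer annotated transcript. ORC3 is shown because its level did not pass the test and its window still holds both an NF-Y and an E2F word. Both lie before its listed start. In GENCODE the gene starts earlier, at 87590067, so the NF-Y word spans that base and the E2F word lies after it.
RRM2, chr2:10122612-10122632, plus strand: gcagCCAATgggaagggtcgg
RRM2, chr2:10122642-10122662, plus strand: acagCCAATgggaagggccgg
RRM2, chr2:10122669-10122689, plus strand: aaagCCAATgggaagggccgg
ORC3, chr6:87590062-87590082, plus strand: ccagCCAATcaaggagccgtg
ORC3, chr6:87590119-87590134, plus strand: gcgcGCGGGAAAtccc

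The comparison of Sen(IR)+UK5099 with Sen(IR) asks how the irradiated cells differed with UK5099. These are again bulk cultures, so fewer cells in S phase and less RNA per cell cannot be told apart. Of the 44 genes, 20 fell further, none rose and 24 were not called, against 12.1% of all genes lower and 8.76% higher. The median change of the 44 was -0.46, against 0.01 over all genes, with a range of -3.59 to 0.29. The groups did not overlap for 31 genes in the lower direction and for 3 in the higher, where 28.6% and 27.9% of all genes did so. By role, 12 of 20 licensing and helicase genes, 5 of 17 polymerase genes and 3 of 7 nucleotide genes were called, with medians of -0.77, -0.45 and -0.34. Of the 20, 13 changed by more than 1 on the log2 scale, and the share of all genes beyond 1 was not counted. At an unadjusted p under 0.05 there were 34 of the 44, against 51.6% of all genes.

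MKI67 moved with these genes as well, at 1.36, 0.630 and 0.852 CPM with UK5099, a change of -3.54 (SE 0.206, adjusted p = 3.38e-12). CDKN1A did not pass the test, at 0.06 (SE 0.0522, adjusted p = 0.395). Fibroblast markers moved too, since 6 of the 10 were called lower with UK5099 and their sum was 10899 to 11390 CPM. COL1A1 (-1.56) and FAP (-3.45) were among them, and their part in the result for the replication genes was not tested.

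RRM2 had the largest change of the 44. Its libraries stood at 58.9, 52.9 and 55.3 CPM in Sen(IR) and at 4.30, 5.41 and 4.10 CPM with UK5099, a 12.1-fold lower level (log2 fold change -3.59, SE 0.114, adjusted p = 6.85e-17). This fall was about as large as the one from Prol to Sen(IR), and the UK5099 mean was 0.793% of the Prol mean. TK1 went from 8.36, 6.91 and 9.02 CPM to 0.703, 0.963 and 0.736 CPM, a change of -3.32 (SE 0.183, adjusted p = 1.40e-12). TYMS, also called, went from 45.2, 43.3 and 45.6 CPM to 12.2, 14.3 and 13.6 CPM, a change of -1.74 (SE 0.0853). For these 3 genes every UK5099 library lay below every Sen(IR) library.

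The other nucleotide genes moved little. RRM1 was at -0.16 (SE 0.0635, adjusted p = 0.0454), DCK at -0.34 and DUT at 0.12, all inside the limit on size. RRM2B stood at 185, 196 and 207 CPM with UK5099, among the Sen(IR) libraries, with a difference of 0.02 (SE 0.0576, adjusted p = 0.832). The log2 ratio of RRM2B to RRM2 therefore went to 5.42 ± 0.238, which is 3.62 above Sen(IR) with no overlap, again at the smallest p of 0.1 that the exact permutation test allows. On the linear scale RRM2B had 36.1 to 50.2 counts for each RRM2 count with UK5099, 3.19 to 3.70 in Sen(IR) and 0.0869 to 0.115 in Prol.

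**Figure D4:**
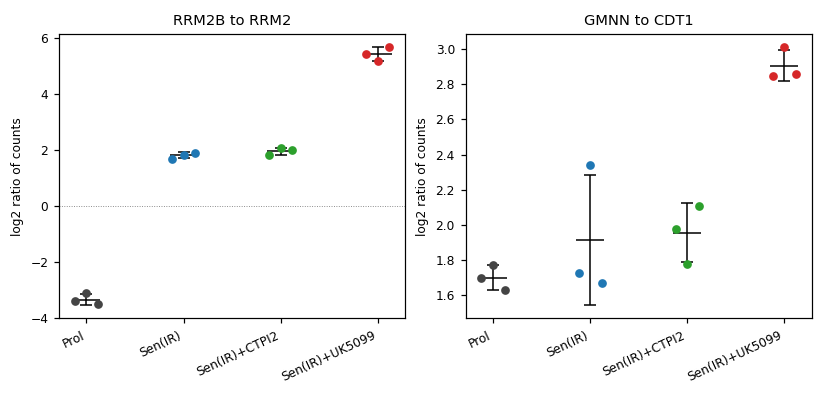
Log2 ratio of RRM2B to RRM2 counts and of GMNN to CDT1 counts in each library, with the mean and SD of 3 libraries. The RRM2B to RRM2 ratio steps from -3.35 in Prol to 1.80 in Sen(IR) and 5.42 with UK5099, and GMNN to CDT1 is highest with UK5099 at 2.91.

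Among the licensing genes MCM10 and CDC45 were the most affected. MCM10 went from 3.78, 3.36 and 3.23 CPM to 0.579, 0.556 and 0.232 CPM, a change of -2.92 (SE 0.262, adjusted p = 5.31e-09). The lowest of these libraries held 6 counts, so the precision is limited there. CDC45 went from 2.22, 3.46 and 2.99 CPM to 0.496, 0.556 and 0.620 CPM, a change of -2.35 (SE 0.238, adjusted p = 3.58e-08). ORC1 was at 0.662, 0.852 and 0.620 CPM (change -1.57) and CDC6 changed by -1.71. None of these UK5099 libraries reached the Sen(IR) range.

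The MCM ring subunits did not move alike with UK5099. MCM5, MCM7 and MCM2 fell further, by 1.25, 0.91 and 0.77 on the log2 scale (SE 0.117, 0.0737 and 0.118). MCM3 was lower with no overlap, at -0.33 (edgeR adjusted p = 0.00155), under the limit on size. MCM4 was at -0.13. MCM6 stood at 34.9, 38.0 and 37.1 CPM in Sen(IR) and at 42.1, 42.7 and 39.6 CPM with UK5099, a non-overlapping difference of 0.18 (SE 0.0625, adjusted p = 0.0247) that is under the limit on size. Per kilobase, MCM6 was the highest ring subunit with UK5099, at 11.0 ± 0.439 CPM per kb, and MCM7, the highest in Sen(IR), was at 7.91 ± 0.646. ORC2 (0.29) and RFC1 (0.20) were the other genes whose UK5099 libraries all lay above Sen(IR).

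GINS2 and GINS4 fell by 1.10 and 1.17, and their partners GINS1 and GINS3 were at -0.33 (adjusted p = 0.0645) and -0.16 (adjusted p = 0.538). CDT1 went from 2.62, 1.99 and 3.14 CPM to 0.910, 1.11 and 1.16 CPM (change -1.27, SE 0.229, adjusted p = 9.10e-05). GMNN stood at 6.70, 9.11 and 8.56 CPM, overlapping Sen(IR), with a change of -0.24 (SE 0.127, adjusted p = 0.127). The GMNN to CDT1 log2 ratio was 2.91 ± 0.0915 with UK5099, 0.99 above Sen(IR) with no overlap, and the exact permutation p was 0.1. Without Sen(IR) replicate 2 this difference was 1.21.

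ORC3 again did not pass the test, at 64.3, 65.2 and 65.4 CPM with UK5099 and a change of 0.02 (SE 0.0601, adjusted p = 0.794). It is therefore the one gene of the 44 that was not called in either comparison nor in the other 2.

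Of the polymerase genes POLE2 and FEN1 fell most. POLE2 went from 1.47, 1.85 and 2.3 CPM to 0.579, 1.22 and 0.774 CPM (change -1.10, SE 0.260, adjusted p = 0.00149). FEN1 went from 16.8, 17.2 and 19.2 CPM to 9.39, 8.34 and 7.94 CPM (change -1.05, SE 0.103, adjusted p = 2.09e-08). Both sets of libraries were separate. POLA1, RFC2 and POLD1 were also called, with changes of -0.68, -0.67 and -0.55. The call of POLD1 was lost without Sen(IR) replicate 2 (-0.488) and without Sen(IR)+UK5099 replicate 3 (-0.494), and that of MCM8 without Sen(IR)+UK5099 replicate 2 (-0.465), where the value passed under the limit on size.

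RFC3 and PRIM1, which fell most from Prol to Sen(IR) within this role, were at -0.43 (SE 0.130) and -0.47 (SE 0.203), with PRIM1 at an edgeR adjusted p of 0.0637. Some genes outside the calls passed when 1 library was left out. RFC3 was then at -0.588 without Sen(IR)+UK5099 replicate 3 and PRIM1 at -0.591 without Sen(IR)+UK5099 replicate 2. POLA2 was at -0.589 without Sen(IR) replicate 3 and at -0.512 without Sen(IR)+UK5099 replicate 3, and LIG1 at -0.531 without Sen(IR) replicate 3 and at -0.526 without Sen(IR)+UK5099 replicate 1. PCNA was at 50.9, 52.2 and 47.2 CPM with UK5099 and 67.1, 68.7 and 69.8 CPM in Sen(IR), separate but under the limit on size at -0.45. POLE, the catalytic subunit of polymerase epsilon, was at -0.02 (adjusted p = 0.898). POLD2 and POLD3 were at 0.14 and 0.11, and neither passed the test.

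**Figure D5:**
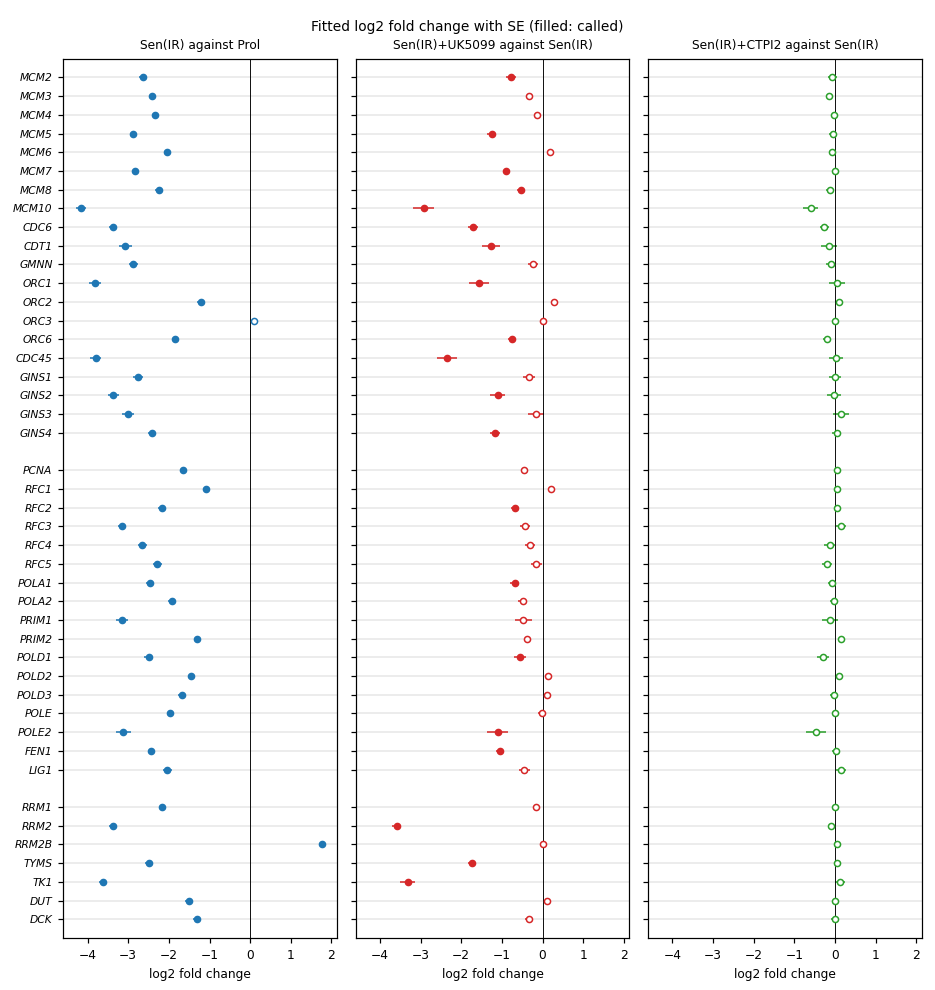
Fitted log2 fold change of each gene, with its SE, in 3 comparisons, with filled points for called genes. Sen(IR) against Prol lies left of 0 for 42 genes, Sen(IR)+UK5099 against Sen(IR) has filled points for 20, led by RRM2, TK1, MCM10 and CDC45, and Sen(IR)+CTPI2 against Sen(IR) has none. The UK5099 and CTPI2 panels share the Sen(IR) libraries.

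The comparison of Sen(IR)+CTPI2 with Sen(IR) asks the same of CTPI2. None of the 44 genes was called by edgeR or by DESeq2, where 0.148% of all genes were lower and 0.0185% higher by edgeR. At an unadjusted p under 0.05 there were 3 of the 44 (7.27% of all genes), MCM10, CDC6 and ORC6, all with lower levels. The median of the 44 was -0.01, with a range of -0.60 to 0.16. The 2 groups were separate for 7 genes in the lower and 2 in the higher direction, against 8.30% and 6.79% of all genes.

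MCM10 had the smallest p. It stood at 2.5, 2.64 and 1.69 CPM with CTPI2, below the 3 Sen(IR) libraries, and its difference of -0.60 (SE 0.191) had an adjusted p of 0.298 in edgeR. With no filter on low counts this adjusted p was 0.0461. RRM2 was at 56.7, 45.8 and 54.3 CPM and overlapped Sen(IR), with a difference of -0.09 and a 95% interval of -0.26 to 0.08. TK1 was at 8.85, 8.12 and 9.65 CPM (0.13, interval -0.10 to 0.37), and RRM2B at 197, 191 and 215 CPM (0.05, interval -0.06 to 0.17).

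The intervals say how far a change could go unseen. For 38 of the 44 genes the 95% interval stayed within 0.5 on the log2 scale in both directions, and for 6 it did not, namely MCM10, CDT1, GINS3, PRIM1, POLD1 and POLE2. POLE2 had the widest interval, from -0.94 to 0.02. The ratios were likewise close to Sen(IR), with RRM2B to RRM2 at 1.95 ± 0.136 (difference 0.15, exact permutation p = 0.300) and GMNN to CDT1 at 1.96 ± 0.168 (difference 0.04, exact permutation p = 0.800).

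UK5099 and CTPI2 were also compared directly, with the same irradiation in both groups. Here 21 of the 44 genes were lower with UK5099 and none higher, against 11.7% and 8.20% of all genes, and the median was -0.48 with a range of -3.50 to 0.23. The libraries were separate for 27 genes in the lower and 2 in the higher direction, against 27.6% and 26.1% of all genes, and 31 had an unadjusted p under 0.05, against 51.2%. RRM2 was 3.50 lower on the log2 scale (-3.50, SE 0.114), TK1 at -3.45 (SE 0.179), CDC45 at -2.38 (SE 0.234) and MCM10 at -2.31 (SE 0.282), with edgeR adjusted p from 1.33e-16 to 6.58e-07. Since this comparison and the one with Sen(IR) share the UK5099 libraries, their calls are not independent. They had 17 genes in common. MCM8, POLD1 and POLE2 were called against Sen(IR) only, and PCNA, RFC3, PRIM2 and LIG1 against CTPI2 only. In the comparison where they were not called, POLE2 was at -0.64 (adjusted p = 0.0618) and the other 6 were at -0.45 to -0.26. Each of the 4 calls against CTPI2 only was lost when 1 library was left out, with LIG1 at -0.494 without Sen(IR)+CTPI2 replicate 1, RFC3 at -0.451 without Sen(IR)+UK5099 replicate 1 and PRIM2 at -0.479 without Sen(IR)+UK5099 replicate 3. PCNA was at -0.487 without Sen(IR)+CTPI2 replicate 2 and at -0.465 without Sen(IR)+UK5099 replicate 3.

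Other genes of the same processes were followed in lists. Of 33 further initiation and fork genes, 26 fell and 1 rose in Sen(IR), against 22.4% and 24.8% of all genes, with a median of -1.68. TOP2A, the topoisomerase that untangles replicated DNA, changed by -4.26, the checkpoint mediator CLSPN by -3.48 and the cohesion factor DSCC1 by -3.37, while POLD4, a small subunit of polymerase delta, rose by 1.00. With UK5099 6 of the 33 fell and none rose, against 12.1% and 8.76% of all genes. The largest changes were those of TOP2A (-2.44, SE 0.0807), CLSPN (-1.52, SE 0.157) and DSCC1 (-0.87, SE 0.227). The list median was -0.15, nearer to 0 than the -0.46 of the 44. None of the 33 was called with CTPI2, where 0.148% of all genes were lower and 0.0185% higher.

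Of 12 further genes of deoxynucleotide supply, 6 fell and 2 rose in Sen(IR), against 22.4% of all genes lower and 24.8% higher. The folate enzyme SHMT1 (-2.74) and thymidylate kinase DTYMK (-2.00) were among those that fell. The mitochondrial thymidine kinase TK2 rose from 23.8, 25.3 and 24.6 CPM to 68.5, 63.7 and 67.6 CPM (1.44, SE 0.0613), and SAMHD1, which breaks deoxynucleotides down, rose by 1.06 (SE 0.0773). With UK5099 4 of the 12 fell, among them NUDT1 (-0.76), SAMHD1 (-0.73) and NME1 (-0.68), against 12.1% of all genes. With CTPI2 none of the 12 was called, where 0.148% of all genes were lower and 0.0185% higher. TK1 and TK2 thus moved in opposite directions after irradiation, as RRM2 and RRM2B did.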

How the data were processed

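RNA was sequenced as paired ends in 12 MRC5 libraries. Per the labels and the study's methods, the authors used Trimmomatic 0.36 for trimming, STAR 2.5.2b for alignment to GRCh38, and featureCounts of Subread 1.5.2 to count reads that fell uniquely in a gene's exons. The deposited values are these raw counts, with no normalization, and reads in exons shared by overlapping genes may be missing from them. The strand setting is not given in the sources used here. All 12 columns carry a sample's name, and 0 columns belonged to other samples. The labels do not tie replicates to separate cultures, while the study describes its RNA-seq groups as independent experiments or conditions, 3 of each. P-values measure the spread between these libraries.

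Counts were tested with edgeR 4.0.16 in R 4.3.3 (filterByExpr, TMM factors, glmQLFit and glmQLFTest, 1 fit of all 12 libraries, Benjamini-Hochberg adjustment over 16251 genes). The SE is the absolute log2 fold change divided by the square root of F, and intervals of 95% rest on the normal distribution and this SE. The edgeR and DESeq2 1.42.0 steps were tested on simulated data. Ratios of 2 genes were compared by exact permutation over libraries. Lengths are those of the MANE Select transcript, positions and exon overlaps come from GENCODE v44, and 32 of the 44 genes share under 5% of their exon bases with another gene.

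Values in every library are given for the 2 genes of each role with the largest change in Sen(IR) against Prol and with UK5099, for genes not called lower in Sen(IR), for the smallest p with CTPI2, and for RRM2, RRM2B, CDT1 and GMNN. Those of TYMS, MCM6, PCNA and TK2 were added after their values were seen. Of each list of other genes, the 3 with the largest called change were to be named, and 1 result under this rule is not reported here. The members, roles, lists and promoter words were chosen with earlier results of these data known. Alternatives were DESeq2, scaling by RLE or by the upper quartile, all genes with a count kept, 2 groups per fit, a replicate block, unadjusted p, a limit of 1 on the log2 fold change, genes with few shared exon bases, a pseudocount of 1 for ratios, and each library left out.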

Additional observations from a re-analysis of the deposited data

How the results depend on the processing

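The counts of members called in Sen(IR) against Prol were 42 lower and 1 higher under every test, scaling, filter and limit tried and without any single library, and 30 lower and 1 higher among the 32 members with few shared exon bases. When a change beyond 1 was asked for, the members lower with UK5099 went from 20 to 13 against Sen(IR) and from 21 to 12 against CTPI2. The share of all genes at this limit was not counted. The count lower with CTPI2 went from 0 to 1, MCM10, with no filter on low counts, and to 1 with an unadjusted p, by edgeR and by DESeq2. Leaving out 1 library gave 19 to 22 members lower with UK5099 against Sen(IR), and 19 to 22 against CTPI2. Deviations of same-numbered libraries correlated at -0.01 to 0.04. Replicate 3 correlated best with its own number in every comparison, replicate 2 in none and replicate 1 in some. Values this near 0 do not settle whether replicate numbers pair the libraries. A replicate block in the fit gave 42, 20, 0 and 21 members lower in the 4 comparisons and changed no call. Upper-quartile scaling shifted the median of all genes by 0.121 in Sen(IR) against Prol, and by less than that in the others. It took the UK5099 change of MCM8 to -0.498 and the difference of PCNA from CTPI2 to -0.479, both then uncalled. Changes near 0 turned sign: POLE with UK5099 was 0.00133 under upper-quartile scaling and -0.0620 to 0.0185 without single libraries, ORC3 -0.0355 to 0.0549 and RRM2B -0.0233 to 0.0595. The difference in GMNN to CDT1 ratio ran from -0.000226 to 0.335 in Sen(IR) against Prol and from -0.0795 to 0.256 with CTPI2. The cause was not tested. MCM10, ORC1, CDC45, POLE2 and TK1 had the fewest counts, which limits their precision.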

Other observations

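The genes of de novo and salvage nucleotide synthesis, ahead of the step to deoxynucleotides, moved less than the replication genes. Of 18 de novo and salvage genes 17 were tested, and 15 fell in Sen(IR) against Prol with a median of -1.01 and none rose, against 22.4% of all genes lower and 24.8% higher. The purine enzyme PFAS (-2.54), CTP synthase CTPS1 (-1.74) and the purine enzyme PAICS (-1.52) had the largest changes. With UK5099 CTPS1 was lower by -0.56 (SE 0.0701, edgeR adjusted p = 8.73e-07) and DHODH, the pyrimidine enzyme of the inner mitochondrial membrane, was higher by 0.67 (SE 0.177, adjusted p = 0.00377), and the list median was 0.01. These were the calls of the list with UK5099, 1 lower and 1 higher of 17, where 12.1% of all genes were lower and 8.76% higher. DHODH was also higher with UK5099 than with CTPI2, by 0.54 (SE 0.172, edgeR adjusted p = 0.0139). It was the only call of the list there, where 11.7% of all genes were lower and 8.20% higher. No gene of the list was called between CTPI2 and Sen(IR), where 0.148% of all genes were lower and 0.0185% higher. The list was chosen with earlier results of these data known.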
